A study of Mus musculus with 24 samples.

Results

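The collagens, the enzymes that crosslink them, and the proteoglycans and glycoproteins laid down with them form the structural part of the extracellular matrix of the kidney. Their transcripts were taken by gene symbol. The set held every gene named as a collagen chain, the lysyl oxidases (*Lox*, *Loxl1*, *Loxl2* and *Loxl4*), the lysyl hydroxylases (*Plod1*, *Plod2* and *Plod3*), and *Dcn*, *Lum*, *Bgn*, *Fmod*, *Fn1*, *Sparc*, *Eln* and *Postn*. In all, 57 of the 18782 genes with a probe set of their own were members, of which 42 were collagen chains and 15 were other genes. A probe set is the group of array probes that reads 1 transcript, and 63 probe sets carried the symbol of 1 member and no other. For the 6 members with 2 probe sets, the one with the higher mean over the arrays was used. *Col7a1*, *Col9a3* and *Loxl3* were left out because their probe sets carried 2 symbols, and no probe set carried *Fbn1* as its only symbol in the annotation used.

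Kidneys were collected at 12 weeks of age from 4 groups of 6 mice, with 1 array per mouse: BPH/2J females, BPH/2J males, BPN/3J females and BPN/3J males. BPH/2J is the hypertensive Schlager strain and BPN/3J the normotensive strain bred alongside it. Each is a single inbred line obtained by selective breeding, so a strain difference may include any genetic difference between the lines. The labels name no treatment, and blood pressure records were not analysed here.

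RNA was measured on Affymetrix Mouse Gene arrays, and expression is given as log2 of the RMA value, so that a difference of 1 is a 2-fold change. Array medians were 6.92 to 6.97 in females and 6.89 to 6.93 in males, and arrays of 1 group correlated at 0.981 to 0.997 over all probe sets. A list of 7 proximal tubule genes averaged 12.71 to 12.95 in every array, so the defining transcripts of kidney were present throughout. Transcripts of neighbouring organs varied within groups. A mean over 18 hepatocyte genes spanned 7.38 to 10.07 (BPH/2J females), 7.56 to 9.999 (BPH/2J males), 7.24 to 12.18 (BPN/3J females) and 7.24 to 9.26 (BPN/3J males), with BPN/3J female arrays 2 and 5 at 11.93 and 12.18. A mean over 11 genes of the adrenal cortex spanned 5.85 to 9.26 in BPH/2J females, 5.91 to 8.06 in BPH/2J males, 5.74 to 9.74 among the BPN/3J females, and 5.74 to 8.45 among the BPN/3J males. Whole kidney RNA was used, so fewer cells of a type and less RNA per cell cannot be told apart.

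Collagen is made as chains that are hydroxylated on lysine in the endoplasmic reticulum, wound into a triple helix, secreted, trimmed and then joined by lysyl oxidases into fibres that resist stretch. Fibril-forming collagens give the interstitium and vessel walls their strength, whereas collagen IV builds the sheet-like network of basement membranes, including that of the glomerular filter. Collagen VI forms beaded filaments close to cells, and small leucine-rich proteoglycans such as decorin and fibromodulin bind to collagen and set the spacing and thickness of fibrils. In the kidney this matrix is produced mainly by fibroblasts, pericytes, smooth muscle and mesangial cells, and by epithelial cells for their basement membranes.

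Start regions are shown for fibromodulin, for the 2 collagen VI genes *Col6a6* and *Col6a5*, and for *Col4a4* of the collagen IV pair *Col4a3* and *Col4a4*. The strain differences of that pair were smaller than those of *Lox* and *Loxl2*, for which no window is shown. Each window runs from 250 bases before to 50 bases after the annotated gene start, 5′ to 3′ on the strand of the gene, from RefSeq on build GRCm38.p6. The windows are chr1:134037004-134037303 (plus strand) for *Fmod*, chr9:105828036-105828335 (minus) for *Col6a6*, chr9:105960594-105960893 (minus) for *Col6a5* and chr1:82586800-82587099 (minus) for *Col4a4*. Capitals mark a match to CCAAT in *Fmod* and to the GC box GGGCGG in *Col6a6* and *Col6a5*, on either strand. In *Col4a4* they mark the 114 bases annotated to both *Col4a4* and *Col4a3*, which lie head to head and are read in opposite directions.
Fmod: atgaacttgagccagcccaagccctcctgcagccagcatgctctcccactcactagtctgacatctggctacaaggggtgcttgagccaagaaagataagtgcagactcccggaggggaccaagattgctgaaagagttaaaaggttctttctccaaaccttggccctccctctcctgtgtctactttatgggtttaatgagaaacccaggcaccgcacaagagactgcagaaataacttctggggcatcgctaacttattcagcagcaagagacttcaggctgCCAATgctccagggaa
Col6a6: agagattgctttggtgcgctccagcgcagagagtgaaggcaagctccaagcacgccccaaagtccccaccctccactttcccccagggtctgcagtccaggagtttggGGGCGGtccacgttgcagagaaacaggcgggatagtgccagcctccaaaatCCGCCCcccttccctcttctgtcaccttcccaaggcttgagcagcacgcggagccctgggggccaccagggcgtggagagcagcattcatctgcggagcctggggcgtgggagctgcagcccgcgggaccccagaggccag
Col6a5: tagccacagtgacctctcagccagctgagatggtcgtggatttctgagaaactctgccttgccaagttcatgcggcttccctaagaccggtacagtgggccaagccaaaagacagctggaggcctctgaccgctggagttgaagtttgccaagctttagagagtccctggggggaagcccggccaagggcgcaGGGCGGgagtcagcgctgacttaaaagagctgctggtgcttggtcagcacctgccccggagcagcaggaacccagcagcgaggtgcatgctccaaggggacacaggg
Col4a4: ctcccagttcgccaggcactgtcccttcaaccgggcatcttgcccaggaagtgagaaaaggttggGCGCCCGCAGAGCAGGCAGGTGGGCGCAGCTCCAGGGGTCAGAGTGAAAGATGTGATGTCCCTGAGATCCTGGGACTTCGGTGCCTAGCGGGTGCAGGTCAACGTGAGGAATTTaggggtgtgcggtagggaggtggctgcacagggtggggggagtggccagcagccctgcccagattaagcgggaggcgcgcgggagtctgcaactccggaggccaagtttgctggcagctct
The *Fmod* window held 1 CCAAT match, 34 bases after the start, and neither a GC box nor TATAAA. *Col6a6* held 2 GC boxes and *Col6a5* held 1, and *Col4a4* held none of the 3 motifs. GC content was 51.0% for *Fmod*, 65.0% for *Col6a6*, 60.0% for *Col6a5* and 63.3% for *Col4a4*, against a median of 52.7% over 32851 mouse windows of this length. A window was given for 41 of the 57 members. The GC box was found in 25 of their 45 windows (55.6%) and in 35.7% of all windows. It shared bases with a CCAAT match in none of the members' windows and in 108 of all windows, and with TATAAA in no window. TATAAA was found in 7 (15.6%) of the members' windows and 13.6% of all windows, and CCAAT in 15 (33.3%) and 37.4%. A match is only a run of letters in the window.

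Of the 57 members, 10 were higher and 2 lower in BPH/2J than in BPN/3J females, and 12 were higher and none lower in BPH/2J than in BPN/3J males. A gene was called when its Benjamini-Hochberg adjusted p from limma, over all probe sets, was under 0.05. The members called higher were 17.5% of the set in females and 21.1% in males, where 9.05% and 8.58% of all genes were called higher. Members called lower were 3.51% in females and 0% in males, where 6.89% and 8.15% of all genes were called lower. In males 19 members had an unadjusted p under 0.05, and none was lower by the methods' t-test with Benjamini-Hochberg adjustment either, which called 10 members. With probe sets under the 40th percentile left out, with a trended robust fit or with the replicate block, *Col4a4* was called lower in males, as it was without BPH/2J male array 4 or BPN/3J male array 1, and *Col6a1* was without BPN/3J male array 5. The median difference of the members was 0.08 in females and 0.05 in males on the log2 scale, against 0.02 and 0.00 for all genes.

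*Fmod*, *Loxl2*, *Lox*, *Dcn*, *Sparc*, *Col6a5* and *Col4a3* were higher in BPH/2J kidneys of both sexes, with differences between 0.24 and 1.17 on the log2 scale. These 7, all higher, were 12.3% of the members. Among all genes, 8.74% were called in the same direction in both sexes, a share that pools higher and lower. In females alone, *Col3a1*, *Col1a2* and *Col15a1* were called higher and *Col4a4* and *Loxl4* lower. In males alone, *Col6a6*, *Plod2*, *Postn*, *Col12a1* and *Col27a1* were called higher. No member was called in opposite directions in the sexes.

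**Figure D1:**
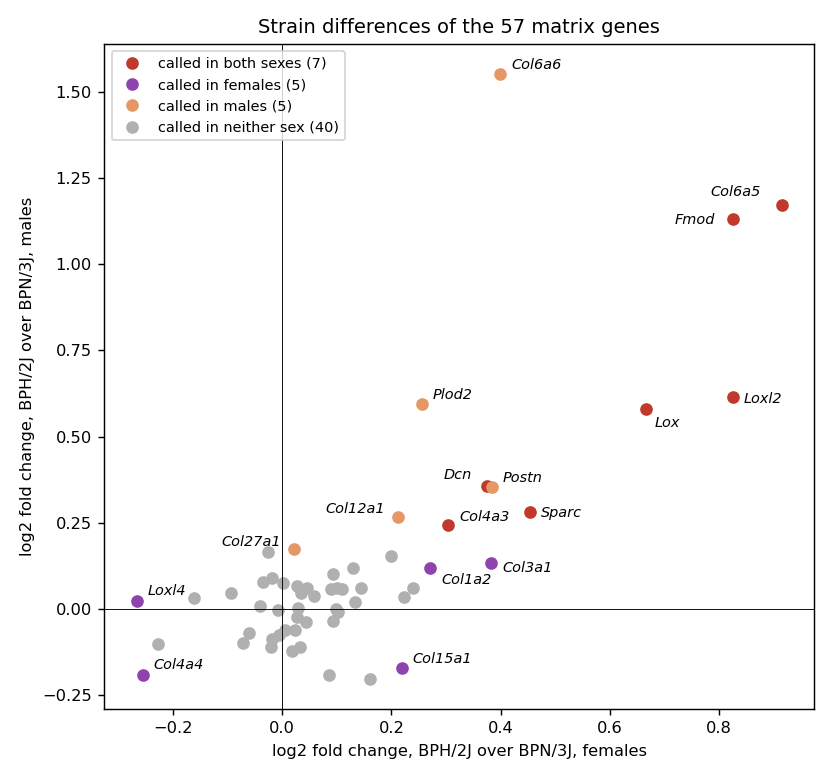
Difference between BPH/2J and BPN/3J (log2 fold change) of each of the 57 members in females (x axis) and males (y axis), coloured by the sex in which it was called at an adjusted p under 0.05. The 7 members called in both sexes lie to the upper right, from *Col4a3* at 0.30 and 0.24 to *Col6a5* at 0.92 and 1.17, and *Col6a6* stands apart at 0.40 in females and 1.55 in males.

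Between the sexes, 19 members were higher and 4 lower in BPH/2J females than in BPH/2J males, and 14 were higher and 4 lower in BPN/3J females than in BPN/3J males. The members called higher in females were 33.3% of the set in BPH/2J and 24.6% in BPN/3J, where 17.4% and 16.5% of all genes were called higher. The members called lower in females were 7.02% in each strain, where 15.5% of all genes in BPH/2J and 16.6% in BPN/3J were called lower. When the arrays were shifted to a common median, the BPH/2J split was 18 higher (31.6%) and 8 lower (14.0%), where 13.6% of all genes were higher and 20.3% lower. After quantile normalisation it was 17 higher (29.8%) and 7 lower (12.3%), where 16.7% of all genes were higher and 16.1% lower. The number lower was also 8 with probe sets under the 40th percentile left out and 7 without BPH/2J male array 2.

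In both strains, 12 members were higher in females (*Bgn*, *Col12a1*, *Col18a1*, *Col1a2*, *Col5a2*, *Col6a3*, *Dcn*, *Fn1*, *Lox*, *Loxl4*, *Lum* and *Postn*) and 2 were lower (*Col6a5* and *Col6a6*). These 14 were 24.6% of the members, and 23.3% of all genes were called in the same direction in both strains, with higher and lower pooled in both shares. *Dcn* and *Lox* were called higher in all 4 comparisons, in BPH/2J over BPN/3J and in females over males. *Col6a5* was higher in BPH/2J of both sexes and lower in females of both strains.

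The strain difference itself differed between the sexes for 2 members, *Col15a1* and *Col6a6*. These were 1.75% of the members in each direction, against 1.13% of all genes with a larger difference in females and 1.1% with a smaller one. At least 1 of the 5 comparisons was called for 30 members (52.6%), against 49.6% of all genes. In the other 27 members no comparison was called, and their largest difference in any strain or sex comparison was 0.24. Among them were *Col1a1*, *Col4a1*, *Col4a2*, *Col4a5*, *Eln* and *Plod3*. Of the 10 members with a mean under the 40th percentile of all probe sets, only *Col19a1* (10% of them) was called anywhere, against 16.9% of all genes under that level.

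The fibril-forming collagens numbered 11. In females 2 were higher in BPH/2J and in males 1, and none was lower. For this and the later classes, the shares of all genes were 9.05% higher and 6.89% lower in females. In males they were 8.58% higher and 8.15% lower. *Col3a1*, the chain of collagen III that accompanies collagen I in vessel walls and interstitium, was 7.72 to 7.92 (median 7.82) in BPH/2J females and 7.36 to 7.72 (median 7.58) in BPH/2J males, against 7.30 to 7.55 (median 7.44) in BPN/3J females and 7.23 to 7.56 (median 7.47) in BPN/3J males. All 6 BPH/2J females lay above all 6 BPN/3J females, whereas the males of the 2 strains overlapped. The strain difference was 0.38 (standard error 0.0574, adjusted p = 0.000465) in females and 0.13 (standard error 0.0652, adjusted p = 0.214) in males, and the difference between these did not pass (adjusted p = 0.189).

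*Col1a2*, the second chain of collagen I, was 8.44 to 8.56 (median 8.50) in BPH/2J females, 8.06 to 8.28 (median 8.14) in BPH/2J males, 8.12 to 8.37 (median 8.22) in BPN/3J females and 7.88 to 8.14 (median 8.01) in BPN/3J males. Its strain difference was 0.27 (standard error 0.0503, adjusted p = 0.00235) in females, with no overlap, and 0.12 (standard error 0.0528, adjusted p = 0.165) in males. Females exceeded males by 0.36 (standard error 0.0428, adjusted p = 3.27e-05) in BPH/2J and 0.21 (standard error 0.0590, adjusted p = 0.0182) in BPN/3J. *Col1a1*, which encodes the partner chain of collagen I, was called in no comparison, and its 4 groups overlapped. It was 7.80 to 8.25 (median 7.93) in BPH/2J females, 7.67 to 7.97 (median 7.83) in BPH/2J males, 7.60 to 8.001 (median 7.71) in BPN/3J females and 7.57 to 7.92 (median 7.77) in BPN/3J males. The strain difference of *Col1a1* was 0.24 (standard error 0.0803, adjusted p = 0.0675) in females, and in males its 95% interval was −0.08 to 0.21.

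*Col5a2*, a chain of collagen V, which forms the core on which collagen I fibrils start, was higher in females of both strains. It was 6.51 to 6.91 (median 6.79) in BPH/2J females against 6.42 to 6.55 (median 6.51) in BPH/2J males, and 6.86 to 6.97 (median 6.93) in BPN/3J females against 6.29 to 6.70 (median 6.44) in BPN/3J males. Only in BPN/3J did the sexes not overlap, since 1 BPH/2J female lay within the range of the males. The female over male difference was 0.27 (standard error 0.0644, adjusted p = 0.00658) in BPH/2J and 0.46 (standard error 0.0601, adjusted p = 6.69e-05) in BPN/3J. *Col27a1* was higher in BPH/2J males by 0.17 (standard error 0.0503, adjusted p = 0.0333), a call lost in 6 of the 12 fits that left out 1 array. The other fibril-forming chains (*Col2a1*, *Col5a1*, *Col5a3*, *Col11a1*, *Col11a2* and *Col24a1*) were called in no comparison by the probe sets used. A second probe set for *Col5a1*, with a mean of 6.58, was lower in BPH/2J females than in BPH/2J males (−0.25, adjusted p = 0.0241), where the probe set used gave 0.02.

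Collagen IV and the other network-forming collagens gave 9 members. The chains of the mature glomerular basement membrane, *Col4a3* and *Col4a4*, went in opposite directions in females. *Col4a3* was 8.83 to 9.01 (median 8.91) in BPH/2J females and 8.59 to 8.996 (median 8.80) in BPH/2J males, against 8.39 to 8.78 (median 8.58) in BPN/3J females and 8.44 to 8.72 (median 8.55) in BPN/3J males. Its BPH/2J females lay above every BPN/3J female, and the males overlapped. BPH/2J exceeded BPN/3J by 0.30 (standard error 0.0612, adjusted p = 0.00413) in females and 0.24 (standard error 0.0692, adjusted p = 0.0288) in males, and the male call was lost in 7 of the 12 fits that left out 1 array, with the weakest value without BPH/2J male array 5 (0.22, adjusted p = 0.0669).

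*Col4a4* was 7.87 to 8.004 (median 7.97) in BPH/2J females and 7.94 to 8.30 (median 8.10) in BPH/2J males, against 7.98 to 8.45 (median 8.20) in BPN/3J females and 8.11 to 8.37 (median 8.31) in BPN/3J males. All but 1 of the BPN/3J females lay above the whole BPH/2J female range. It was lower in BPH/2J females, with a difference of −0.26 (standard error 0.0657, adjusted p = 0.0188), and the value in males was −0.19 (standard error 0.0649, adjusted p = 0.0685). The third chain of that membrane, the X-linked *Col4a5*, was called nowhere, and its 95% interval for the strain difference was 0.01 to 0.19 in females and −0.13 to 0.13 in males.

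*Col4a1* and *Col4a2*, which encode the chains of the general basement membrane collagen and lie side by side on the genome, were also called nowhere. *Col4a1* was 8.83 to 8.99 (median 8.89) in BPH/2J females, 8.56 to 8.88 (median 8.79) in BPH/2J males, 8.70 to 8.97 (median 8.79) in BPN/3J females and 8.69 to 8.88 (median 8.78) in BPN/3J males. *Col4a2* spanned 8.63 to 8.80 (median 8.70), 8.44 to 8.75 (median 8.66), 8.49 to 8.73 (median 8.54) and 8.44 to 8.79 (median 8.63) in the same groups. The 4 groups overlapped for both genes. The strain difference of *Col4a1* was 0.10 in females and −0.01 in males, and that of *Col4a2* 0.13 and 0.02. Of the other network-forming chains, *Col8a1* was higher in BPN/3J females than in BPN/3J males by 0.24 (standard error 0.0703, adjusted p = 0.0228).

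Collagen VI held the members with the largest differences between the strains and between the sexes. *Col6a6*, *Col6a5* and *Col6a4*, which encode relatives of the third chain, are neighbours on chromosome 9. *Col6a1* and *Col6a2*, the classical first and second chains, are neighbours on chromosome 10, and *Col6a3* lies on chromosome 1. *Col6a6* was 6.97 to 7.48 (median 7.24) in BPH/2J females and 9.16 to 9.75 (median 9.52) in BPH/2J males, against 6.54 to 7.25 (median 6.75) in BPN/3J females and 7.79 to 8.08 (median 8.02) in BPN/3J males. The BPH/2J males stood clear above every other array, the BPN/3J males came next, and the females of the 2 strains overlapped.

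*Col6a6* was higher in BPH/2J than in BPN/3J males by 1.55 (standard error 0.0966, adjusted p = 9.31e-08), a 2.93-fold difference, and the value in females was 0.40 (standard error 0.134, adjusted p = 0.0671). It was lower in females than in males, with differences of −2.27 (standard error 0.113, adjusted p = 9.62e-09) in BPH/2J and −1.12 (standard error 0.119, adjusted p = 1.17e-05) in BPN/3J, which are 4.84-fold and 2.18-fold. The strain difference in females minus that in males was −1.15 (standard error 0.172, adjusted p = 0.000251). A second probe set for *Col6a6*, with a mean of 6.63, gave 0.31 (adjusted p = 0.0325) in females, 1.14 (adjusted p = 4.55e-06) in males and an interaction of −0.83 (adjusted p = 0.00143).

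*Col6a5* was 6.44 to 7.20 (median 7.02) in BPH/2J females and 7.33 to 7.56 (median 7.51) in BPH/2J males, against 5.73 to 6.12 (median 6.07) in BPN/3J females and 6.04 to 6.53 (median 6.30) in BPN/3J males. Strains did not overlap in either sex, and in BPH/2J the sexes did not overlap either. The strain difference was 0.92 (standard error 0.119, adjusted p = 0.000136) in females and 1.17 (standard error 0.0739, adjusted p = 1.07e-07) in males, which are 1.89-fold and 2.25-fold differences. Females were below males, with differences of −0.57 (standard error 0.110, adjusted p = 0.00144) in BPH/2J and −0.32 (standard error 0.0861, adjusted p = 0.0137) in BPN/3J. Unlike for *Col6a6*, the strain difference of *Col6a5* was not shown to differ between the sexes (−0.25, adjusted p = 0.513), and its second probe set gave 0.55 in females and 0.70 in males.

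The third neighbour, *Col6a4*, was called in no comparison, and its 4 groups overlapped between 5.68 and 6.36. The classical chains went the other way between the sexes. *Col6a1* was 7.81 to 8.01 (median 7.98) in BPH/2J females against 7.32 to 7.69 (median 7.57) in BPH/2J males, with no overlap, and the female over male difference was 0.41 (standard error 0.0648, adjusted p = 0.000352). *Col6a2* and *Col6a3* were also higher in BPH/2J females, by 0.17 and 0.27, and *Col6a3* in BPN/3J females by 0.28. None of the 3 classical chains was called between the strains.

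**Figure D2:**
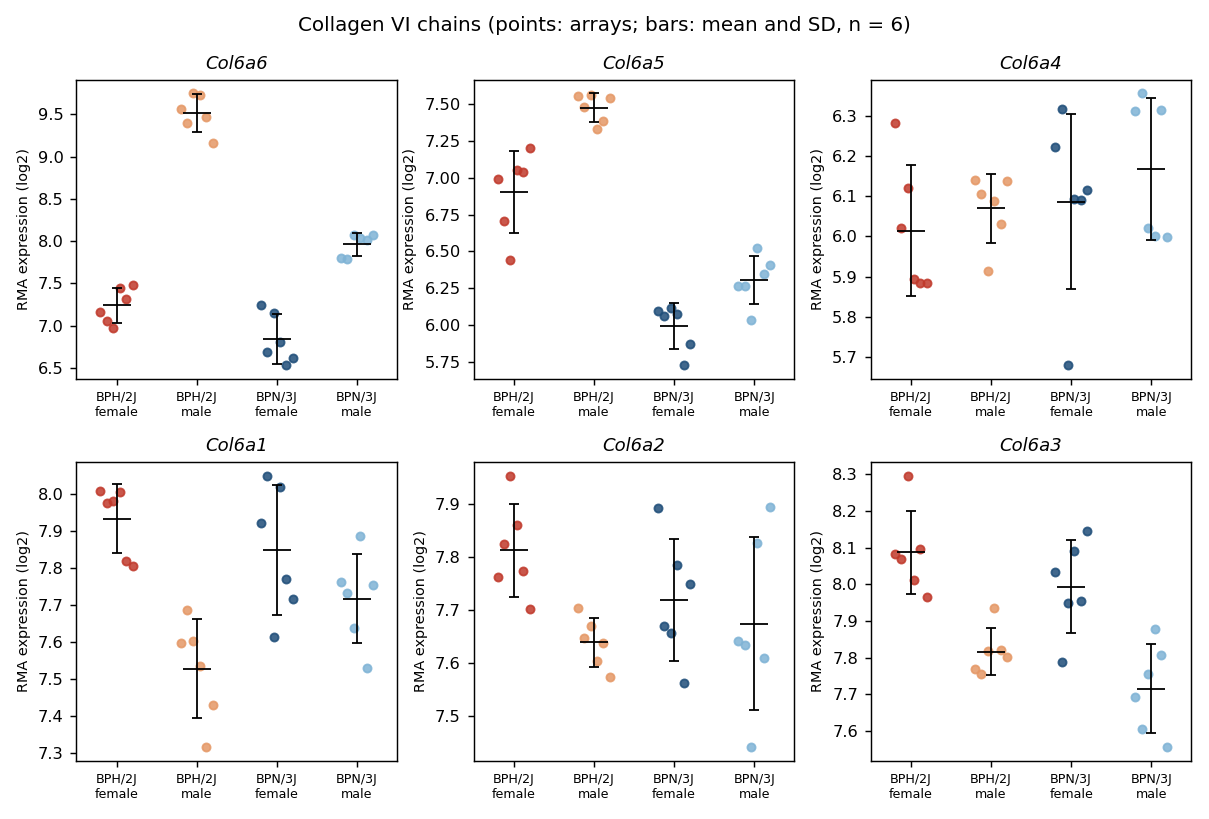
RMA expression (log2, y axis) of the 6 collagen VI chains in BPH/2J females, BPH/2J males, BPN/3J females and BPN/3J males, with 1 point per array and bars for the mean and SD of 6 arrays. *Col6a6* is highest in the BPH/2J males (9.16 to 9.75) and *Col6a5* is higher in both BPH/2J groups, while *Col6a4* overlaps across all groups and *Col6a1*, *Col6a2* and *Col6a3* are higher in BPH/2J females than in BPH/2J males.

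Of the 8 fibril-associated collagens, *Col12a1*, which binds to the surface of collagen I fibrils, was higher in BPH/2J males by 0.27 (standard error 0.0629, adjusted p = 0.0103) and higher in females of both strains, by 0.25 in BPH/2J and 0.30 in BPN/3J. Its strain difference in females was 0.21 (standard error 0.09325, adjusted p = 0.1725), and was not shown to differ from that in males (−0.06, adjusted p = 0.910). *Col19a1* was lower in BPN/3J females than in BPN/3J males, with a difference of −0.53 (standard error 0.0795, adjusted p = 0.000238) and no overlap, and *Col14a1* was higher there by 0.18 (standard error 0.0519, adjusted p = 0.0169). The other members of this class (*Col9a1*, *Col9a2*, *Col16a1*, *Col20a1* and *Col22a1*), the 4 transmembrane collagens (*Col13a1*, *Col17a1*, *Col23a1* and *Col25a1*) and *Col26a1* and *Col28a1* were called nowhere. 

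*Col15a1* and *Col18a1* encode the multiplexins, collagens of basement membrane zones whose ends are released as the fragments restin and endostatin. *Col15a1* was 8.10 to 8.31 (median 8.19) in BPH/2J females and 7.69 to 7.87 (median 7.75) in BPH/2J males, with no overlap between the sexes. It was 7.79 to 8.16 (median 7.95) in BPN/3J females and 7.74 to 8.21 (median 7.88) in BPN/3J males, which overlapped almost fully. The female over male difference was 0.43 (standard error 0.0451, adjusted p = 9.31e-06) in BPH/2J and 0.04 (standard error 0.0876, adjusted p = 0.752) in BPN/3J.

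The strain difference of *Col15a1* was 0.22 (standard error 0.0648, adjusted p = 0.0382) in females and −0.17 (standard error 0.0740, adjusted p = 0.156) in males, and the interaction was 0.39 (standard error 0.101, adjusted p = 0.0448). Both the female strain call and the interaction were lost without BPN/3J female arrays 2 and 5, at 0.16 (adjusted p = 0.160) and 0.33 (adjusted p = 0.143). Leaving out 1 array at a time, the female strain call was lost in 8 of 12 fits and the interaction in 18 of 24, with the weakest values without BPH/2J female array 2, at 0.20 (adjusted p = 0.0856) and 0.37 (adjusted p = 0.0857). *Col18a1* was 8.79 to 9.04 (median 8.97) in BPH/2J females against 8.52 to 8.74 (median 8.61) in BPH/2J males, and females exceeded males by 0.32 (standard error 0.0524, adjusted p = 0.000397) in BPH/2J and 0.27 (standard error 0.0574, adjusted p = 0.00288) in BPN/3J.

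Of the 4 lysyl oxidases, 2 were higher and 1 lower in BPH/2J females, and 2 were higher in BPH/2J males. Lysyl oxidases convert lysines of collagen and elastin into reactive aldehydes, from which crosslinks form. *Loxl2*, an oxidase that acts on the collagen IV of basement membranes, was 8.14 to 8.45 (median 8.28) in BPH/2J females and 7.79 to 8.11 (median 7.94) in BPH/2J males, against 7.37 to 7.62 (median 7.46) in BPN/3J females and 7.16 to 7.46 (median 7.34) in BPN/3J males. Every BPH/2J array lay above every BPN/3J array. Between the strains, the difference was 0.83 (standard error 0.0592, adjusted p = 5.71e-07) in females and 0.61 (standard error 0.0666, adjusted p = 2.27e-05) in males, or 1.77-fold and 1.53-fold.

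Its second probe set, with a mean of 5.67, showed neither difference (−0.06 in females and 0.00 in males), so the *Loxl2* result rests on 1 of 2 probe sets. *Lox*, the founding lysyl oxidase, was 7.13 to 7.42 (median 7.28) in BPH/2J females and 6.60 to 7.27 (median 6.89) in BPH/2J males, against 6.45 to 6.87 (median 6.59) in BPN/3J females and 6.15 to 6.44 (median 6.34) in BPN/3J males. Strains did not overlap in either sex. The strain difference was 0.67 (standard error 0.0765, adjusted p = 5.01e-05) in females and 0.58 (standard error 0.0955, adjusted p = 0.000835) in males. Females were above males by 0.37 (standard error 0.0965, adjusted p = 0.0109) in BPH/2J and 0.28 (standard error 0.0756, adjusted p = 0.0126) in BPN/3J.

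*Loxl4* went against the other 2. It was 6.94 to 7.09 (median 6.98) in BPH/2J females, 6.67 to 6.97 (median 6.79) in BPH/2J males, 7.13 to 7.38 (median 7.27) in BPN/3J females and 6.58 to 6.93 (median 6.85) in BPN/3J males. The BPN/3J females stood above all other arrays, and the 2 male groups overlapped. *Loxl4* was lower in BPH/2J than in BPN/3J females, with a difference of −0.27 (standard error 0.0457, adjusted p = 0.00129), and females exceeded males by 0.17 (standard error 0.0532, adjusted p = 0.0256) in BPH/2J and 0.46 (standard error 0.0680, adjusted p = 0.000181) in BPN/3J. A second *Loxl4* probe set, with a mean of 6.68 against 6.96, gave −0.17 (adjusted p = 0.124) for that strain difference and 0.23 (adjusted p = 0.107) for the sexes in BPH/2J, so neither call held there, and 0.53 (adjusted p = 0.000197) for the sexes in BPN/3J. The BPH/2J sex call was also lost in 4 of the 12 fits that left out 1 array. By the probe set used, the strain difference of *Loxl4* in males was 0.02 (adjusted p = 0.882). It was not shown to differ from that in females (interaction −0.29, adjusted p = 0.1025). *Loxl1*, which acts on elastic fibres, was called only between the sexes in BPH/2J, higher in females by 0.21 (standard error 0.0560, adjusted p = 0.0114).

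Lysyl hydroxylases modify the lysines that later form crosslinks, and *Plod2* acts on those in the ends of the chains. *Plod2* was 10.03 to 10.76 (median 10.19) in BPH/2J females and 10.48 to 10.71 (median 10.65) in BPH/2J males, against 9.90 to 10.16 (median 9.997) in BPN/3J females and 9.89 to 10.13 (median 10.03) in BPN/3J males. BPH/2J males lay clear of BPN/3J males, whereas the BPH/2J female range was widened by array 3. BPH/2J minus BPN/3J was 0.26 (standard error 0.101, adjusted p = 0.123) in females, which did not pass, and 0.59 (standard error 0.0561, adjusted p = 5.9e-06) in males, and the difference between them did not pass (adjusted p = 0.190). Within BPH/2J, females were below males, with a difference of −0.36 (standard error 0.101, adjusted p = 0.0155), a call lost with the hepatocyte and adrenal cortex means as covariates (−0.34, adjusted p = 0.0729). *Plod1* was lower in BPN/3J females than in BPN/3J males, with a difference of −0.19 (standard error 0.0389, adjusted p = 0.00215), and *Plod3* was called nowhere.

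Among the 4 small leucine-rich proteoglycans, 2 were higher in BPH/2J of each sex. Fibromodulin (*Fmod*) binds collagen I and guides its fibril assembly and crosslinking. *Fmod* was 7.57 to 8.02 (median 7.76) in BPH/2J females and 8.05 to 8.36 (median 8.25) in BPH/2J males, against 6.81 to 7.09 (median 6.93) in BPN/3J females and 6.88 to 7.25 (median 7.13) in BPN/3J males. All BPH/2J arrays lay above all BPN/3J arrays. The strain difference was 0.83 (standard error 0.0782, adjusted p = 8.88e-06) in females and 1.13 (standard error 0.0687, adjusted p = 7.02e-08) in males, which are 1.77-fold and 2.19-fold differences. Within BPH/2J, females were below males without overlap, with a difference of −0.44 (standard error 0.0770, adjusted p = 0.000680), and the BPN/3J value was −0.14 (standard error 0.0699, adjusted p = 0.165). The strain difference of *Fmod* was not shown to differ between the sexes (−0.31, adjusted p = 0.183).

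Decorin (*Dcn*) coats collagen I fibrils and binds transforming growth factor beta. *Dcn* was 11.42 to 11.63 (median 11.51) in BPH/2J females and 11.09 to 11.23 (median 11.16) in BPH/2J males, against 10.89 to 11.31 (median 11.23) in BPN/3J females and 10.71 to 10.86 (median 10.80) in BPN/3J males. Groups did not overlap in any of the 4 comparisons. Its strain difference was 0.37 (standard error 0.0813, adjusted p = 0.00686) in females and 0.36 (standard error 0.0387, adjusted p = 2.29e-05) in males. The sex difference was nearly the same size, 0.37 (standard error 0.0447, adjusted p = 3.85e-05) in BPH/2J and 0.35 (standard error 0.0777, adjusted p = 0.00413) in BPN/3J.

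**Figure D3:**
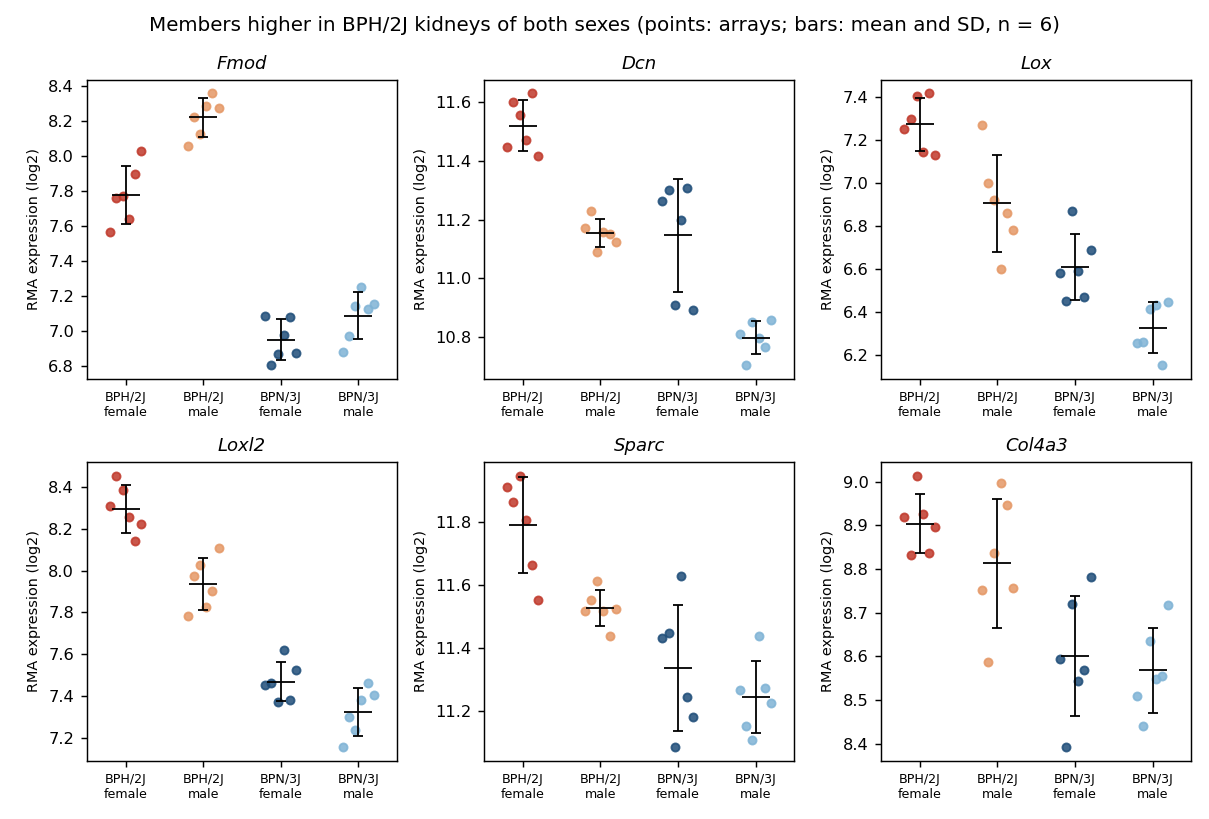
RMA expression (log2, y axis) of *Fmod*, *Dcn*, *Lox*, *Loxl2*, *Sparc* and *Col4a3* in BPH/2J females, BPH/2J males, BPN/3J females and BPN/3J males, with 1 point per array and bars for the mean and SD of 6 arrays. For *Fmod* (7.57 to 8.36 against 6.81 to 7.25) and *Loxl2* every BPH/2J array is above every BPN/3J array, while *Sparc* and *Col4a3* overlap between strains in at least 1 sex.

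Lumican (*Lum*), a close relative of fibromodulin whose gene neighbours that of decorin, differed between the sexes and was not called between the strains. *Lum* was 7.03 to 7.51 (median 7.32) in BPH/2J females against 6.14 to 6.79 (median 6.61) in BPH/2J males, and 6.68 to 7.41 (median 7.16) in BPN/3J females against 5.96 to 6.69 (median 6.38) in BPN/3J males. The sexes were separate in BPH/2J and met at the edges in BPN/3J. Females exceeded males by 0.75 (standard error 0.114, adjusted p = 0.000229) in BPH/2J and 0.71 (standard error 0.151, adjusted p = 0.00302) in BPN/3J. The strain difference had a 95% interval of −0.11 to 0.50 in females and −0.12 to 0.43 in males.

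Biglycan (*Bgn*), an X-linked proteoglycan that binds collagen and can signal through toll-like receptors, had the smallest within-group SD of the 30 members called anywhere, 0.0535. *Bgn* was 12.63 to 12.74 (median 12.69) in BPH/2J females against 12.41 to 12.53 (median 12.46) in BPH/2J males, and 12.60 to 12.82 (median 12.67) in BPN/3J females against 12.36 to 12.46 (median 12.38) in BPN/3J males. The sexes did not overlap in either strain. Females exceeded males by 0.23 (standard error 0.0340, adjusted p = 0.000195) in BPH/2J and 0.30 (standard error 0.0423, adjusted p = 0.000122) in BPN/3J, and the strain difference had a 95% interval of −0.09 to 0.09 in females and 0.00 to 0.15 in males, where its adjusted p was 0.182.

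Of the 4 matrix glycoproteins, *Sparc*, which encodes osteonectin, a collagen-binding protein that aids fibril assembly, was 11.55 to 11.95 (median 11.83) in BPH/2J females and 11.44 to 11.61 (median 11.52) in BPH/2J males, against 11.08 to 11.63 (median 11.34) in BPN/3J females and 11.11 to 11.44 (median 11.25) in BPN/3J males. The strains overlapped in both sexes at 1 edge. The strain difference was 0.45 (standard error 0.0953, adjusted p = 0.00547) in females and 0.28 (standard error 0.0537, adjusted p = 0.00246) in males. In BPH/2J, females were above males by 0.26 (standard error 0.0646, adjusted p = 0.00728), which was 0.16 (adjusted p = 0.0279) with the hepatocyte and adrenal cortex means as covariates.

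Periostin (*Postn*), a matricellular protein that supports collagen crosslinking, was 8.17 to 8.59 (median 8.21) in BPH/2J females and 7.47 to 7.94 (median 7.56) in BPH/2J males, against 7.48 to 8.30 (median 7.97) in BPN/3J females and 6.96 to 7.55 (median 7.31) in BPN/3J males. BPH/2J females lay above all BPH/2J males, and in BPN/3J the sexes overlapped. Females exceeded males by 0.65 (standard error 0.0898, adjusted p = 0.000108) in BPH/2J and 0.62 (standard error 0.139, adjusted p = 0.00427) in BPN/3J. Its strain difference was 0.38 (standard error 0.129, adjusted p = 0.0682) in females and 0.35 (standard error 0.104, adjusted p = 0.0355) in males, and the male call was lost in 6 of the 12 fits that left out 1 array, with the weakest value without BPN/3J male array 2 (0.32, adjusted p = 0.0770).

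**Figure D4:**
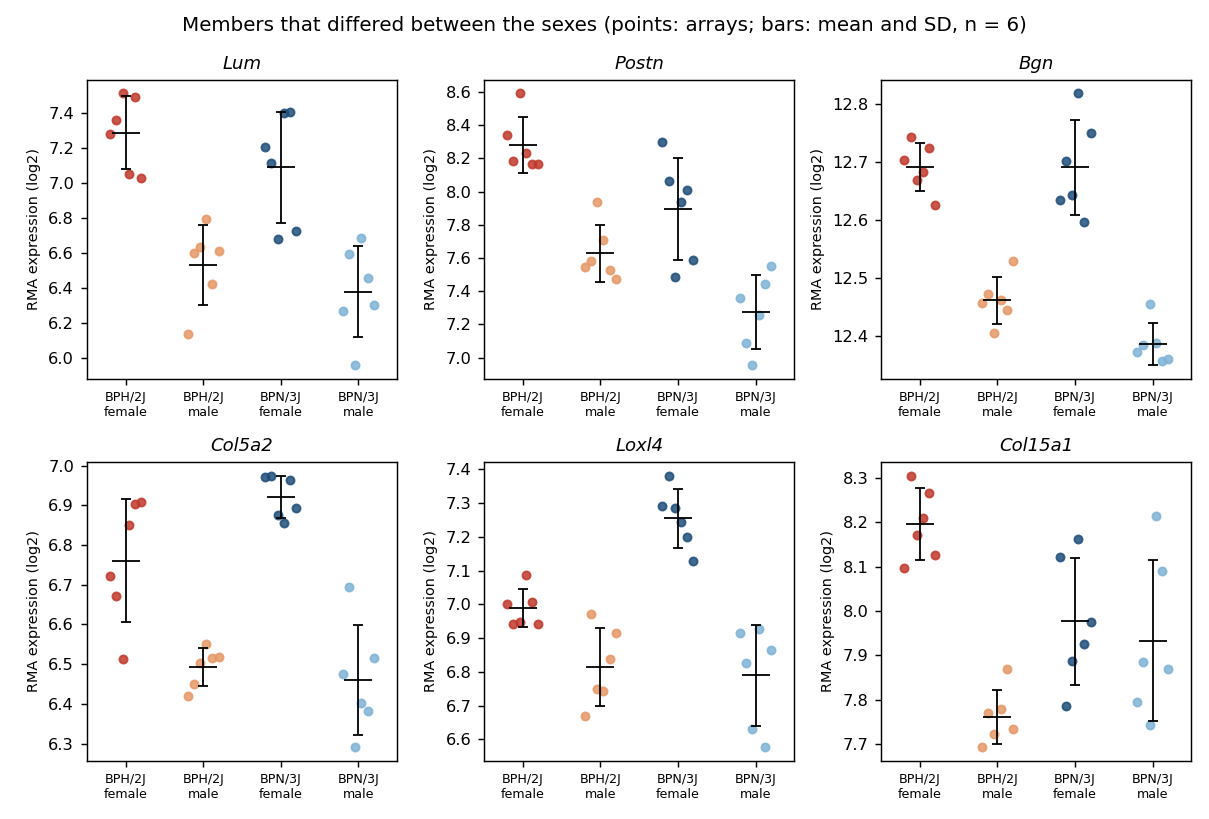
RMA expression (log2, y axis) of *Lum*, *Postn*, *Bgn*, *Col5a2*, *Loxl4* and *Col15a1* in BPH/2J females, BPH/2J males, BPN/3J females and BPN/3J males, with 1 point per array and bars for the mean and SD of 6 arrays. *Bgn* separates the sexes in both strains (12.60 to 12.82 in females against 12.36 to 12.53 in males), and *Col15a1* separates them in BPH/2J (8.10 to 8.31 against 7.69 to 7.87) but not in BPN/3J.

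Within BPN/3J females, arrays 3 and 6 were the lowest 2 for *Dcn*, *Lum*, *Postn* and *Sparc*, and were also the lowest 2 for the adrenal cortex list, at 5.80 and 5.74 against 8.60 to 9.74 in the other 4. The same arrays were the lowest 2 for the adipocyte (8.38 and 8.21), macrophage (7.92 and 8.09) and hepatocyte (7.255 and 7.24) lists. In BPH/2J females, arrays 5 and 6 were the lowest 2 for the adrenal cortex list, at 6.36 and 5.85. Array 6 was the lowest there for these genes. Array 5 was the highest for *Dcn* (11.63) and second highest for *Lum* (7.49), and second lowest for *Postn* and *Sparc*. The adrenal cortex list had a median of 9.06 in BPH/2J females against 6.56 in BPH/2J males, and 8.97 in BPN/3J females against 6.37 in BPN/3J males. With the hepatocyte and adrenal cortex means as covariates, the female over male difference in BPN/3J was 0.26 for *Dcn* (adjusted p = 0.00815). It was 0.53 for *Lum* (adjusted p = 0.00574) and 0.46 for *Postn* (adjusted p = 0.0112). Over all comparisons, 46 calls of named members were kept with these covariates and 3 were lost. What part of the unadjusted sex differences hepatocyte and adrenal cortex transcripts make up was not tested.

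Fibronectin (*Fn1*), a glycoprotein on which new collagen is deposited and which the liver also makes for plasma, was 10.76 to 11.33 (median 10.84) in BPH/2J females against 10.16 to 10.50 (median 10.34) in BPH/2J males, and 10.43 to 11.78 (median 10.90) in BPN/3J females against 10.02 to 10.43 (median 10.30) in BPN/3J males. It had the largest within-group SD of the members, 0.296. Females exceeded males by 0.59 (standard error 0.0912, adjusted p = 0.000260) in BPH/2J and 0.74 (standard error 0.197, adjusted p = 0.0125) in BPN/3J, with touching but separate ranges in BPN/3J. The highest *Fn1* values, 11.49 and 11.78, belonged to BPN/3J female arrays 2 and 5, and without those arrays the BPN/3J difference was 0.43 (adjusted p = 0.0121). BPH/2J female array 3, with *Fn1* at 11.33, had a hepatocyte mean of 10.07, the highest of its group. No strain difference was called for *Fn1*, whose 95% interval was −0.54 to 0.35 in females and −0.11 to 0.21 in males.

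**Figure D5:**
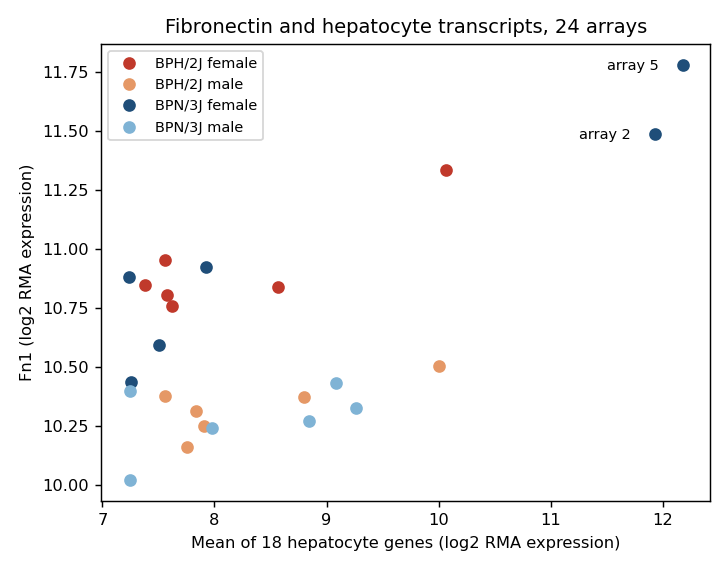
RMA expression of *Fn1* (log2, y axis) against the mean of 18 hepatocyte genes (log2, x axis) in the 24 arrays, coloured by group. BPN/3J female arrays 2 and 5 are highest on both axes (*Fn1* 11.49 and 11.78), and the males lie between 10.02 and 10.50 for *Fn1* at hepatocyte means of 7.24 to 9.999.

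Elastin (*Eln*), the stretchable core of elastic fibres in artery walls, was called in no comparison. *Eln* was 6.92 to 7.18 (median 7.08) in BPH/2J females, 6.81 to 7.21 (median 7.004) in BPH/2J males, 6.89 to 7.13 (median 6.97) in BPN/3J females and 6.79 to 7.09 (median 6.99) in BPN/3J males, and all 4 groups overlapped. Its strain difference had a 95% interval of −0.04 to 0.21 in females and −0.10 to 0.21 in males.

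Other genes of matrix biology were taken from lists chosen with earlier results of these data known. Beside the counts of these lists, 9.05% of all genes were called higher and 6.89% lower in BPH/2J females than in BPN/3J females. In males the shares were 8.58% and 8.15%. Between the sexes, 17.4% of all genes were higher and 15.5% lower in BPH/2J females, and 16.5% and 16.6% in BPN/3J females. Of 17 genes for collagen processing, 3 were higher and 1 lower in BPH/2J females while in males 2 were higher and 1 lower. Their median difference was 0.04 in females and 0.07 in males, against 0.02 and 0.00 for all genes, and 7 were higher and 3 lower in BPH/2J females than in BPH/2J males. *Colgalt2*, a galactosyltransferase that acts on hydroxylysine of collagen, was higher in BPH/2J by 0.73 in females and 0.63 in males. *Serpinh1*, the collagen chaperone HSP47, was lower, with differences of −0.58 and −0.54. *Crtap*, part of the prolyl hydroxylation complex, was higher by 0.37 and 0.17, and lower in females than in males, at −0.56 in BPH/2J and −0.76 in BPN/3J.

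Of 18 genes of transforming growth factor beta signalling, a main inducer of matrix genes, 7 were higher and none lower in BPH/2J females, and in males 6 were higher and 2 lower. The list's median difference was 0.12 in females and 0.04 in males. Between the sexes, 9 were higher and 1 lower in BPH/2J females, and 8 were higher and 1 lower in BPN/3J females. The ligand *Tgfb2* was higher in BPH/2J by 0.95 (standard error 0.0994, adjusted p = 2.19e-05) in females and 0.66 (standard error 0.0530, adjusted p = 1.12e-06) in males, and was higher in females by 0.79 in BPH/2J and 0.50 in BPN/3J. *Ltbp3*, which holds the latent ligand, was higher in BPH/2J by 0.52 in females and 0.25 in males. *Ccn2*, connective tissue growth factor and a target of the pathway, was higher in BPH/2J males by 0.45 (standard error 0.107, adjusted p = 0.0118), with 0.21 (standard error 0.0721, adjusted p = 0.0681) in females. The 2 genes lower in BPH/2J males were the ligand *Tgfb1* (−0.26) and the signal carrier *Smad2* (−0.15).

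Of 23 genes for matrix turnover, 9 were higher and none lower in BPH/2J females, and in males 4 were higher and 1 lower, with medians of 0.16 and 0.01. Between the sexes, 11 were higher and 2 lower in BPH/2J females, and 9 were higher and 1 lower in BPN/3J females. The aggrecan-cleaving protease *Adamts5* was higher by 0.66 in females and 0.56 in males. The gelatinase *Mmp9* was higher in females by 0.56 (standard error 0.102, adjusted p = 0.00193), with 0.20 (standard error 0.0946, adjusted p = 0.210) in males, and the stromelysin *Mmp3* was higher in females by 0.26 (standard error 0.0688, adjusted p = 0.0214), with 0.35 (standard error 0.114, adjusted p = 0.0584) in males. *Mmp13*, a collagenase, was the gene lower in males (−0.38).

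Of 18 basement membrane genes other than collagens, 3 were higher and none lower in BPH/2J females, and in males 3 were higher and 1 lower, with medians of 0.09 and 0.05. *Pxdn*, the peroxidase that forms sulfilimine bonds in collagen IV, was higher in BPH/2J by 0.41 in females and 0.53 in males. The laminin chain *Lamc1* was higher in BPH/2J females by 0.18, and *Frem2* in BPH/2J males by 0.23. Between the sexes, 13 of the 18 were higher and 4 lower in BPH/2J females, and 9 were higher and 3 lower in BPN/3J females.

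Of 28 other matrix proteoglycans and glycoproteins, 10 were higher and 2 lower in BPH/2J females, and in males 8 were higher and 3 lower, with medians of 0.15 and 0.12. *Fbln7*, a fibulin, was higher in BPH/2J by 0.34 (standard error 0.0485, adjusted p = 0.000303) in females and 1.02 (standard error 0.0432, adjusted p = 3.05e-09) in males, and these differed from each other by −0.68 (standard error 0.0626, adjusted p = 2.13e-07). Like *Col6a6* and *Col6a5*, *Fbln7* was lower in females than in males of both strains, at −0.94 in BPH/2J and −0.26 in BPN/3J. Most called genes of this list went the other way between the sexes. In BPH/2J females 13 were higher and 2 lower than in males, and in BPN/3J females 8 were higher and 2 lower. *Matn2*, a matrilin, was higher in BPH/2J by 0.62 in females and 0.45 in males, and asporin (*Aspn*), a relative of decorin, by 0.40 and 0.65. Of 9 collagen receptors, *Ddr2*, a receptor kinase for fibrillar collagen, and *Itga1*, the alpha chain of a collagen-binding integrin, were the 2 higher in both sexes of BPH/2J, and the list's median was 0.05 in females and 0.02 in males. *Ddr2* differed by 0.45 in females and 0.37 in males, and *Itga1* by 0.34 and 0.31. Against males of their strain, 5 receptors were higher and none lower in BPH/2J females, and 4 were higher and 1 lower in BPN/3J females.

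Markers of cells that make matrix were called in the same comparisons. For these and the further cell types below, the shares of all genes between the strains were 9.05% higher and 6.89% lower in BPH/2J females. In BPH/2J males they were 8.58% and 8.15%. Between the sexes, 17.4% of all genes were higher and 15.5% lower in BPH/2J females, and 16.5% and 16.6% in BPN/3J females. Of 10 vascular smooth muscle and pericyte markers, 9 were higher in BPH/2J females and 8 in BPH/2J males, and 8 and 7 were higher in females of BPH/2J and BPN/3J, with none lower. Their mean was 9.13 to 9.28 in BPH/2J females and 8.90 to 8.96 in BPH/2J males, against 8.77 to 9.02 among BPN/3J females and 8.52 to 8.73 among BPN/3J males. Of 5 podocyte markers, which mark the cells that make *Col4a3* and *Col4a4*, 5 were higher in BPH/2J females and 3 in BPH/2J males, and 5 were higher in females of each strain. The podocyte mean was 8.66 to 8.75 in BPH/2J females and 8.24 to 8.35 in BPH/2J males, against 8.37 to 8.61 among BPN/3J females and 7.71 to 8.15 among BPN/3J males.

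Of 8 fibroblast markers, 2 were higher and 1 lower in BPH/2J of each sex, and 4 in BPH/2J and 3 in BPN/3J were higher in females with none lower. The fibroblast mean was 7.91 to 8.01 in BPH/2J females and 7.72 to 7.80 in BPH/2J males, against 7.81 to 7.97 among BPN/3J females and 7.66 to 7.80 among BPN/3J males. Of 10 adipocyte markers, 4 were higher in BPH/2J females with a mean of 9.06 to 9.92, against 8.21 to 9.05 in BPN/3J females, and in males 1 was higher and 2 lower. Between the sexes, 6 adipocyte markers were higher and 1 lower in BPH/2J females, and none was higher and 3 lower in BPN/3J females. Of 6 urothelium markers, 3 were higher in BPH/2J females than in BPN/3J females and none was called between the strains in males or between the sexes in BPH/2J, while 5 were lower in BPN/3J females than in BPN/3J males. Macrophage markers went the other way between the strains, with 3 of 7 lower in BPH/2J females and 4 of 7 lower in BPH/2J males, and 4 in BPH/2J and 1 in BPN/3J were higher in females. Of 7 endothelial markers, 1 was higher in BPH/2J of each sex and 5 were higher in females of each strain. The part of these cell types in the differences of the members was not tested.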

How the data were processed

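Kidney RNA from 24 mice, 6 per group, was hybridised to Affymetrix Mouse Gene arrays. RMA was run by the authors, whose deposited log2 expression values were used here unchanged. The RMA version, and whether all arrays were normalised together, are not given in the sources used here. RMA draws arrays to a common distribution, so differences are relative to the other genes of an array.

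Of 28853 probe sets, 21159 (73.3%) carried 1 gene symbol in the annotation of the platform, 1881 carried several and 5813 none. All 57 members matched RefSeq. Strains were compared within each sex and sexes within each strain on 12 arrays, and the strain-by-sex interaction on all 24, by limma 3.58.1 (R 4.3.3) over all probe sets. A Benjamini-Hochberg adjusted p under 0.05 was called. Differences are BPH/2J minus BPN/3J, or female minus male. Labels number the mice of each group, and the number of arrays limits the precision. The analysis was tested on simulated data.

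Members and lists were chosen with earlier results of these data known. Genes were named if called in both sexes in 1 direction, in the interaction, or between the sexes in both strains (up to 8), or if they belonged to a fixed set of main matrix genes, with up to 3 called genes per other list. *Col6a1*, *Col6a2*, *Col6a3*, *Col6a4*, *Col8a1*, *Col12a1*, *Col14a1*, *Col18a1*, *Col19a1*, *Col27a1*, *Loxl1*, *Loxl4*, *Plod1*, *Tgfb1*, *Smad2* and *Mmp13* fall outside that rule and were chosen after their values were seen.

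Alternatives were the methods' two-sided t-test, a pooled t-test, the Bonferroni threshold of the methods, 1 fit to all arrays, probe sets under the 40th percentile left out, a common median, quantile normalisation, eBayes with a trend and robust fit, the number of the mouse as a block, the mean of all probe sets of a gene, and each array left out. Leaving out BPN/3J female arrays 2 and 5, and hepatocyte and adrenal cortex means as covariates, were added after seeing the data. Plots were made in matplotlib 3.10.9 under Python 3.11.15.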

Additional observations from a re-analysis of the deposited data

Results flagged for a closer look

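Over 92 sets of 6 arrays (the named members in each group), 7 held 1 array whose gap to its nearest neighbour was large against the range of its group by Dixon's criterion, and chance gives about 1 in 20. BPH/2J female array 3 was the highest of its group for *Fn1* (11.33, next 10.95) and for *Plod2* (10.76, next 10.23). BPN/3J female array 4 was highest for *Col1a1* (8.001, next 7.75), and BPN/3J female array 3 for *Eln* (7.13, next 6.97). BPN/3J male array 3 was highest for *Bgn* (12.46, next 12.39). BPH/2J male array 2 was lowest for *Col4a1* (8.56, next 8.76), and BPN/3J male array 1 was lowest for *Col4a4* (8.11, next 8.28).

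The strain difference differed between the sexes for *Col6a6* and *Col15a1*, by the limma interaction over all 24 arrays. For *Col6a6* the difference in females minus that in males was −1.15 (adjusted p = 0.000251), and for *Col15a1* it was 0.39 (adjusted p = 0.0448).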

How the results depend on the processing

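At the Bonferroni threshold, 3 members were called between the strains in females, 6 in males, 3 between the sexes in BPH/2J, 1 in BPN/3J and 1 in the interaction, where 2.32%, 2.57%, 6.08%, 6.02% and 0.453% of all genes were called. Between the sexes the members' shares, out of 57, were under those of all genes. Of those calls, 2 in BPH/2J and 0 in BPN/3J were higher in females. In BPN/3J the larger share higher in females was thus not seen at this threshold. The shares of all genes given here pool both directions, so the BPH/2J share higher cannot be set against them. The interaction called 1 member, *Col6a6*, without BPN/3J female arrays 2 and 5, and 1 with the hepatocyte and adrenal cortex means as covariates, both chosen after seeing the data. Leaving out 1 array at a time gave 11 to 16 members between the strains in females, 9 to 12 in males, 22 to 26 between the sexes in BPH/2J, 17 to 19 in BPN/3J and 1 to 2 in the interaction. Every other total of called members stayed within 1.5 times its reported value, but counts by direction moved further: in BPH/2J the 4 members lower in females became 8 at a common median and with dim probe sets left out, and 7 after quantile normalisation and without BPH/2J male array 2. The 2 lower in BPH/2J females became 1 by the methods' t-test and with the replicate block. The 0 lower in BPH/2J males became 1 under 6 alternatives, and the *Col15a1* interaction was lost in 18 of 24 fits without 1 array. Called values of named members were recomputed at a common median, after quantile normalisation, with the replicate block and by the mean of all probe sets. They were also recomputed with the covariates, without BPN/3J female arrays 2 and 5, and without the array that gave the largest adjusted p. Of these 317 values, 303 kept their direction and call, 14 kept the direction and lost the call, and none reversed. The Bonferroni threshold, the t-tests, the 1 fit to all arrays, the dim probe set filter and the trended robust fit were not among them. The cause was not tested. The labels do not say whether replicate numbers pair the mice, and the check did not show a pairing across all groups. Same-numbered mice correlated at −0.657 to 0.595 after group means were removed. Of 6 arrays, 4 fitted best with their own number between the strains in females, and 1 in males. Between the sexes it was 0 in BPH/2J and 2 in BPN/3J. Whether the females of the strains were paired was not settled. With the replicate block, 10, 11, 22, 18 and 2 members were called in the 5 comparisons, against 12, 12, 23, 18 and 2 without it. Signal over background was not measured here, and 10 members lay under the 40th percentile of mean level.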
